A study of Mus musculus with 19 samples.

Results

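Trp53, the gene of the transcription factor p53, and 9 genes that p53 is known to activate were followed through single-embryo RNA-seq of mouse morulae and blastocysts. The 10 genes are Trp53, Mdm2, Cdkn1a, Ccng1, Bbc3, Bax, Pmaip1, Phlda3, Zmat3 and Trp53inp1, taken by symbol from a table of 53379 gene rows, in which each symbol occurred once. All 10 were counted often enough to be among the 18410 genes tested, Zmat3 through its levels in morulae alone. The question was whether loss of Alyref or of Gabpb1 moved these genes in morulae, and how that compares with the difference between morula and blastocyst.

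PolyA RNA was sequenced from 19 embryos, each lysed on its own, after in vitro fertilisation and culture in KSOM medium until 96 hours post insemination. All embryos carry the strain label B6D2F1. Gametes of Alyref+/- mice gave 2 morulae labelled Alyref KO, 3 morulae labelled WT or hetero and 3 blastocysts labelled WT or hetero. Gametes of Gabpb1+/- mice gave 3 morulae labelled Gabpb1 KO, 2 morulae labelled WT or hetero and 3 blastocysts labelled WT or hetero. WT parents gave 3 blastocysts. Embryos labelled WT or hetero are called non-KO here, and they may carry 1 deleted allele. The submitters assigned KO status from the same libraries, by missing reads over the deleted region. No KO blastocyst and no WT morula was among the embryos. Morulae and blastocysts were collected at the same 96 hours, so stage cannot be told apart from slower or halted development of the morulae. A gene said here to fall or rise was lower or higher in blastocysts than in morulae of that age. No batch or date is given, so a batch cannot be told apart from a cross.

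The deposited gene counts summed to between 7486125 and 31536282 per embryo, with a median of 13633603. Levels are given as CPM, gene counts scaled to a common library size with TMM factors. Alyref, which encodes an adaptor for mRNA export, stood at 48.1 and 58.8 CPM in the Alyref KO morulae and at 211, 293 and 162 CPM in the non-KO morulae of its cross. Its log2 fold change was -2.06 (SE 0.30), and the adjusted p from edgeR's quasi-likelihood test with Benjamini-Hochberg adjustment was 0.0227. Because KO status was assigned from missing reads in these same libraries, this difference is not a separate check of the label. Gabpb1, which encodes a subunit of the transcription factor GABP, stood at 78.7, 261 and 151 CPM in the morulae labelled Gabpb1 KO and at 94.4 and 83.8 CPM in its non-KO counterparts. Its log2 fold change was 0.88 (SE 0.39, adjusted p 0.243, unadjusted p 0.0402), and against the non-KO blastocysts of the same cross at 48.9, 46.1 and 78.3 CPM, Gabpb1 was called higher (adjusted p 0.0192). Gabpb1 mRNA thus ran against that label, though counts per gene do not show the deletion, so these embryos are called by their label throughout. As a check of the labelled stages, 12 trophectoderm markers summed to between 5594 and 8781 CPM in the 9 blastocysts and to between 505 and 5429 CPM in the 10 morulae.

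p53 is held low in unstressed cells because Mdm2, a ubiquitin ligase whose gene p53 itself activates, marks it for breakdown. When p53 is stabilised, its targets slow the cell cycle, of which the kinase inhibitor Cdkn1a is the classic case, or promote cell death through Bcl-2 family proteins such as Bax, Bbc3 and Pmaip1. Because p53 is controlled largely as a protein, the level of its mRNA is not a measure of its activity. p53 is known in early mouse embryos for its part in removing damaged or less fit cells.

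The sequences shown here are the start-site windows of the 5 genes in which a script found the 10-base half-site that p53 binds, because the genes were chosen as p53 targets and had lower values together in blastocysts. Windows run from 250 bases before to 50 bases after a RefSeq start site on GRCm38.p6, and 7 of the 10 genes had at least 1 window. The half-site, searched on both strands by exact match to its consensus, was found in 8.36% of all 32851 windows in the RefSeq table. Cdkn1a is at chr17:29090729-29091028 on the + strand, Mdm2 at chr10:117710709-117711008 on the - strand, Ccng1 at chr11:40755237-40755536 on the - strand, Bax at chr7:45466849-45467148 on the - strand and Trp53 at chr11:69580109-69580408 on the + strand. Each is written 5′ to 3′ along the gene's strand. Capitals mark the half-sites and, in Mdm2, also the letters CTTCCGG, the complement of the core sequence CCGGAAG that GABP binds.
Cdkn1a: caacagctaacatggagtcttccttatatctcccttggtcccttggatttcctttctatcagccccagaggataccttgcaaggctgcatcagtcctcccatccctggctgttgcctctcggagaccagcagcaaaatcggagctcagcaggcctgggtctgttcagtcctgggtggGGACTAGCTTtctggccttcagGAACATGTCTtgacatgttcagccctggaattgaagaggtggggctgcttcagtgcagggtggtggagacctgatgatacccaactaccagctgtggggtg
Mdm2: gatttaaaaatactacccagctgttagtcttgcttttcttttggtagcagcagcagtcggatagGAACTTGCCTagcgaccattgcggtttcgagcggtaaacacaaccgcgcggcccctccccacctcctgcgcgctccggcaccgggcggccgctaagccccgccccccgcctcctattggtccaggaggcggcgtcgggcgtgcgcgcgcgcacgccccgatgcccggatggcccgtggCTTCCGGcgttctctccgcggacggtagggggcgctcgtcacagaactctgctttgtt
Ccng1: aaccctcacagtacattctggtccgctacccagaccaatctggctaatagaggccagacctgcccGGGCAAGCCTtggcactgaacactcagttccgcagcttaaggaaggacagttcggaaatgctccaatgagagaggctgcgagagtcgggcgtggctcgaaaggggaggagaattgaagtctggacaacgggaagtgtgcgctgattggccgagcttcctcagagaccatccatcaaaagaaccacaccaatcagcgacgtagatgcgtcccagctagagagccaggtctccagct
Bax: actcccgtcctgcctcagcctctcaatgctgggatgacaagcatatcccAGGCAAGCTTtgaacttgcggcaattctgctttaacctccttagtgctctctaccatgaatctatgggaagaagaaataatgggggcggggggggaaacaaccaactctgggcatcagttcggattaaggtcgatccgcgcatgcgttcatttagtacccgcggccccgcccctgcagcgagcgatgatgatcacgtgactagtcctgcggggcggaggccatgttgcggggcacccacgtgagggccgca
Trp53: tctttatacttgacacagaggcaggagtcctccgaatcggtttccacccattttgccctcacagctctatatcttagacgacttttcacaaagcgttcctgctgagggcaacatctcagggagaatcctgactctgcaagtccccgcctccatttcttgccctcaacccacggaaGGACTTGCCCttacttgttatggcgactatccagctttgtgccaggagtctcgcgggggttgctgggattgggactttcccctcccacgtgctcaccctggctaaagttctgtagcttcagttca
The window of Cdkn1a, the upstream one of its RefSeq starts, was the only one of these 5 to hold 2 half-sites, with first bases 73 and 51 bases before the start. The match lay 186 bases before the start in Mdm2, 185 in Ccng1, 201 in Bax and 75 in Trp53. CCGGAAG was searched on both strands as well, was found in 8.86% of all windows and stood 8 bases before the start of Mdm2 on the other strand. The windows of Phlda3 and Bbc3 held neither set of letters. A match describes these letters in these windows and is not a measured binding site. Among the genes without a window shown, the annotation on GRCm38 places Bbc3 at chr7:16308393-16318205 (+), Phlda3 at chr1:135766119-135769136 (+), Zmat3 at chr3:32334792-32366014 (-) and Trp53inp1 at chr4:11156431-11174379 (+). All 10 are annotated as protein-coding genes.

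Per length, Cdkn1a mRNA was the most abundant of the 10, with a mean of 92.8 FPKM, the count scaled by gene length and depth, over the 19 embryos, followed by Ccng1 at 82.4 FPKM and Bax at 67.2 FPKM. Phlda3 averaged 27.0, Mdm2 17.9, Pmaip1 16.2, Trp53 15.9 and Trp53inp1 11.8 FPKM. Bbc3 and Zmat3 were the rarest, at means of 1.39 and 0.968 FPKM. Their steadiness differed as well. Bax ranged only from 73.5 to 163 CPM over all embryos, whereas Cdkn1a ranged from 7.44 to 614 CPM and Pmaip1 from 2.86 to 180.3 CPM. The exons of Bax overlap those of another gene model on the same strand by 192 bases, and how the authors counted reads there is not given in the sources used here.

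**Figure D1:**
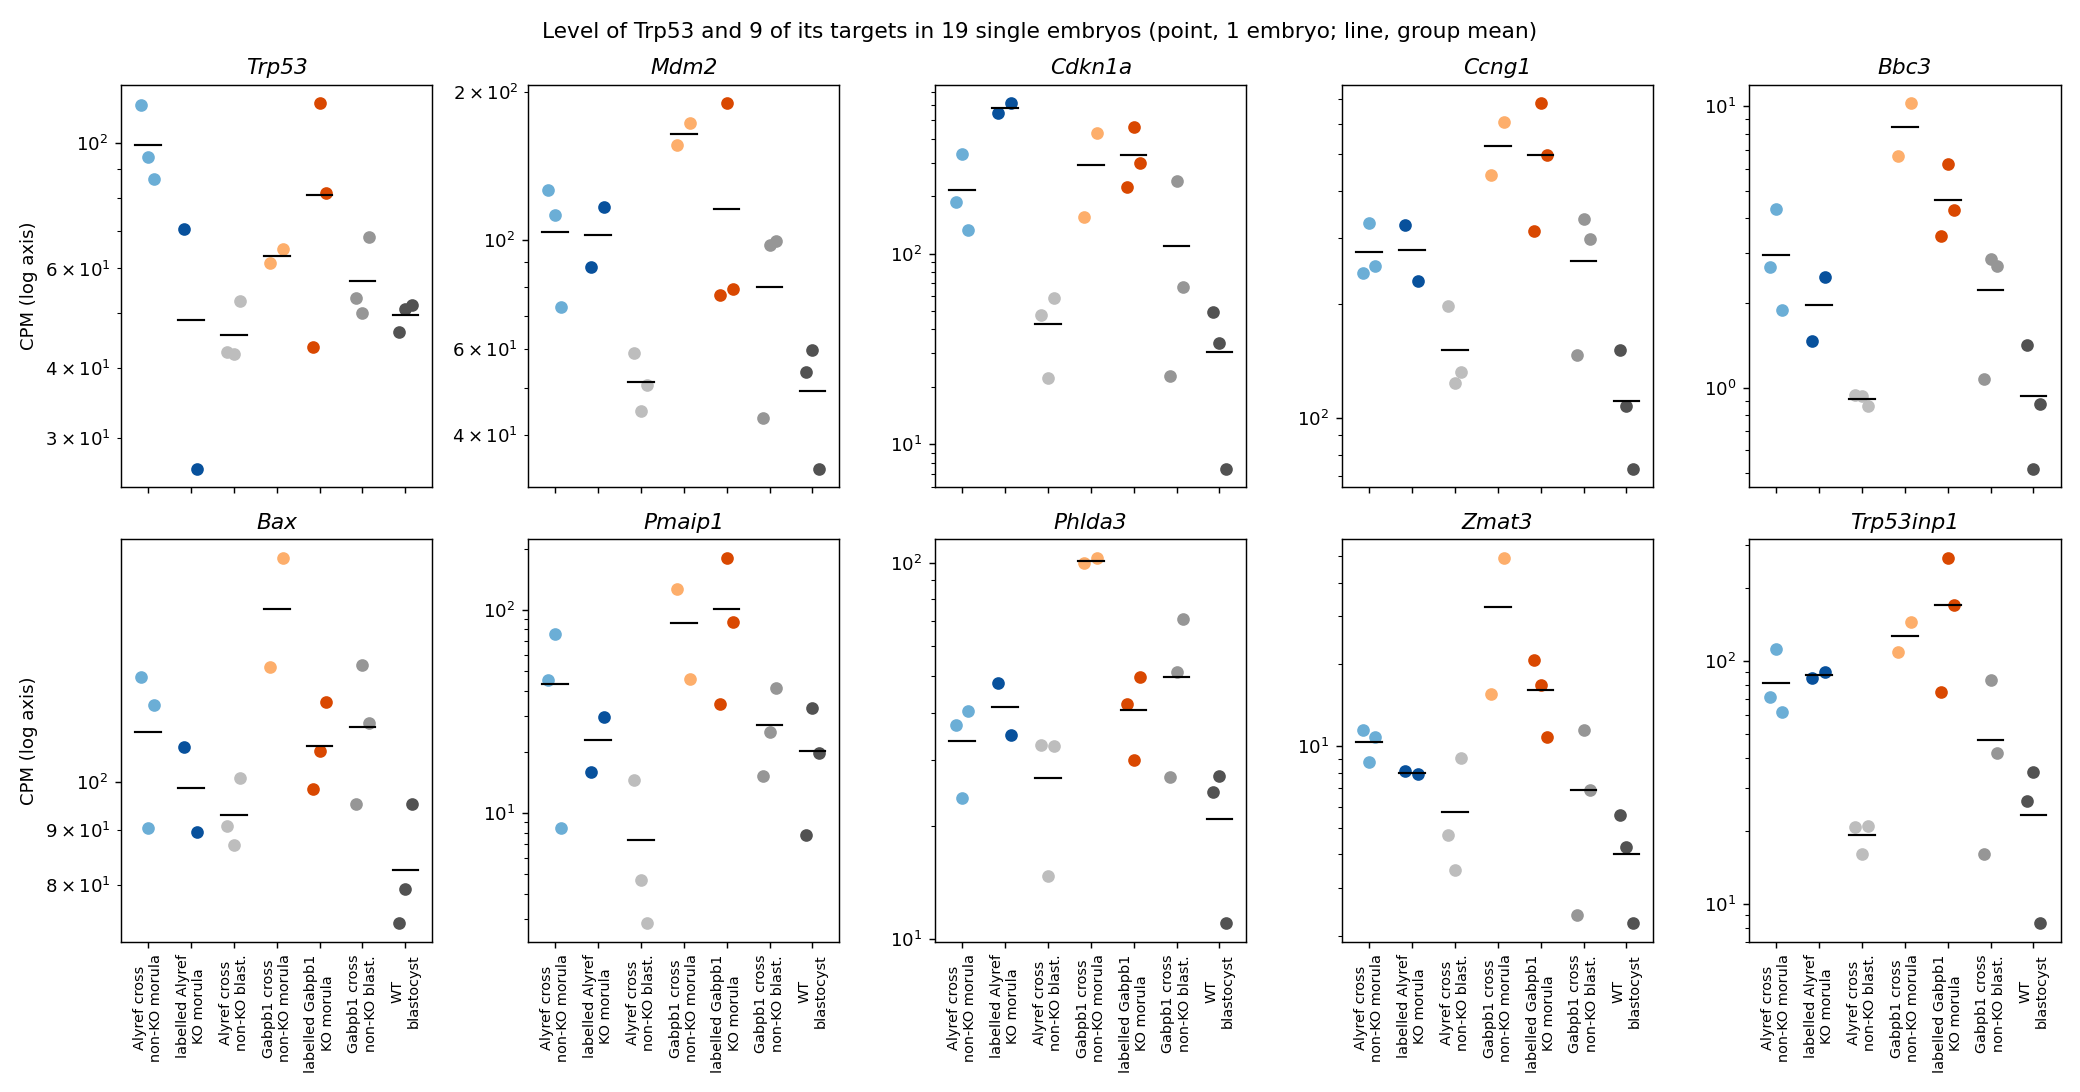
Level of each of the 10 genes in every embryo, in CPM on a log axis, with 1 panel per gene and the 7 groups along the horizontal axis. Points are embryos and short lines are group means, and the blastocysts lie lower than most morulae for Cdkn1a, Trp53inp1 and Bbc3 but hardly for Bax.

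Between morula and blastocyst, all 10 genes had lower fitted levels in the non-KO blastocysts of the Alyref cross, and 3 of them fell at the threshold of an adjusted p under 0.05 in edgeR's quasi-likelihood test with Benjamini-Hochberg adjustment. These were Trp53inp1, Bbc3 and Trp53, and 7 had an unadjusted p under 0.05, as did 31.1% of all genes. Of all genes tested, 7.43% were called lower and 51.7% had a lower fitted level in this comparison. The median log2 difference over the 10 genes was -1.06, beside -0.04 over all genes tested. In whole embryos, fewer cells of a type and less RNA per cell cannot be told apart.

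Trp53inp1, a stress-induced nuclear protein that acts with p53, stood at 71.1, 112 and 61.9 CPM in the non-KO morulae of the Alyref cross and at 20.8, 16.1 and 20.99 CPM in the blastocysts. It fell by 2.08 on the log2 scale (SE 0.57, adjusted p 0.0300), and the lowest morula was well above the highest blastocyst. Bbc3, the BH3-only death protein also called Puma, stood at 2.67, 4.33 and 1.89 CPM in the morulae and at 0.940, 0.936 and 0.859 CPM in the blastocysts. It fell by 1.68 (SE 0.48, adjusted p 0.0327), with the 3 blastocysts nearly equal to each other. Those blastocyst values rest on 29, 15 and 9 counts, too few to show a steady level. Trp53 itself stood at 117, 94.4 and 86.3 CPM in the morulae and at 42.7, 42.2 and 52.5 CPM in the blastocysts. It fell by 1.11 (SE 0.34, adjusted p 0.0416), again without overlap between the stages.

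Cdkn1a and Pmaip1 had larger fitted differences that did not pass. Cdkn1a stood at 186, 331 and 132 CPM in the morulae and at 47.8, 22.3 and 58.4 CPM in the blastocysts. Its log2 difference was -2.34 (SE 0.76, adjusted p 0.0539), although its stages did not overlap. Pmaip1, the BH3-only protein also called Noxa, stood at 45.0, 75.7 and 8.46 CPM in the morulae and at 14.5, 4.68 and 2.86 CPM in the blastocysts. Its difference was -2.52 (SE 0.84, adjusted p 0.0566), and morula 3 lay below blastocyst 1. Mdm2 differed by -1.01 (SE 0.37, adjusted p 0.0795) and Ccng1, a cyclin that acts on Mdm2, by -0.86 (SE 0.35, adjusted p 0.109). Zmat3, a zinc finger protein that binds RNA, differed by -0.86 (SE 0.54), Phlda3, an inhibitor of the kinase Akt, by -0.33 (SE 0.40) and Bax by -0.26 (SE 0.18). The stages did not overlap for 6 of the 10, Trp53inp1, Bbc3, Mdm2, Ccng1, Trp53 and Cdkn1a, where 19.2% of all genes tested were lower without overlap.

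These calls rest on few embryos. No gene of the 10 was called when any 1 of 5 embryos was left out (morula 1 or 2, or blastocyst 1, 2 or 3), whereas 6 were called without morula 3. Over all 18410 genes tested, between 370 and 1104 were called in those 5 fits, and 4560 without morula 3. Scaling to the ERCC spike-in RNA moved the median of all genes to -0.34 and left 0 called, with all 10 still lower by between 0.28 for Bax and 2.18 for Pmaip1 beyond that median.

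In the Gabpb1 cross all 10 genes again had lower fitted levels in the non-KO blastocysts than in the non-KO morulae, but none was called by edgeR. That test called 0% of all genes here, with 2 morulae in the comparison. DESeq2 also called 0 of the 10, limma voom with embryo weights called 1, Bbc3, and 6 had an unadjusted p under 0.05 in edgeR, as did 6.72% of all genes. Over all genes DESeq2 called 51 of 18410 and voom 24. The median log2 difference over the 10 was -1.22, beside 0.02 over all genes, of which 47.5% had a lower fitted level. Zmat3 stood at 15.6 and 49.3 CPM in the morulae and at 2.40, 11.4 and 6.90 CPM in the blastocysts, a difference of -2.24 (SE 0.59, adjusted p 0.438). Bbc3 stood at 6.65 and 10.2 CPM against 1.08, 2.86 and 2.71 CPM, a difference of -1.93 (SE 0.50, adjusted p 0.438). For both, each morula lay above each blastocyst. The size for Zmat3 depended on single embryos, with -1.18 without morula 2 and -2.84 without morula 1. Zmat3 reached at most 0.9997 FPKM in any blastocyst, so it passed the minimum of 1 FPKM for testing through morulae alone. Its lower level in blastocysts is therefore a description. Without that minimum all 10 genes were also fitted lower here.

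Cdkn1a overlapped between the stages in this cross, with 155 and 427 CPM in the morulae and 22.9, 239 and 66.5 CPM in the blastocysts. Its difference was -1.41 (SE 0.80), and blastocyst 2 was the high one. It was -2.71 without that blastocyst, -0.50 without morula 2 and -0.93 without blastocyst 1. Trp53inp1 stood at 109.2 and 145 CPM against 16.1, 83.6 and 41.9 CPM, a difference of -1.43 (SE 0.61, adjusted p 0.693) without overlap. Pmaip1 differed by -1.67 (SE 0.87), Mdm2 by -1.03 (SE 0.41), Phlda3 by -1.03 (SE 0.44) and Ccng1 by -1.01 (SE 0.38). Bax differed by -0.37 (SE 0.20). Trp53, which fell in the Alyref cross, stood at 61.4 and 64.9 CPM in the morulae and at 53.2, 50.0 and 68.1 CPM in the blastocysts of the Gabpb1 cross, with overlap and a difference of -0.14 (SE 0.37). Groups did not overlap for 7 of the 10, Phlda3, Zmat3, Trp53inp1, Bbc3, Mdm2, Ccng1 and Pmaip1, beside 11.7% of all genes lower without overlap. With ERCC scaling the median of all genes was -0.86, and the 10 genes lay below it by between 0.21 for Trp53 and 2.38 for Zmat3.

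The differences between the 2 crosses in this stage comparison were tested directly. None of the 10 was called by edgeR, DESeq2 or voom. In edgeR none had an unadjusted p under 0.05, beside 13.8% of all genes. Over all genes edgeR called 0.00543%, DESeq2 342 of 18410 and voom 1137. The smallest p was that of Trp53, whose difference between stages was smaller by 0.97 on the log2 scale in the Gabpb1 cross (SE 0.51, adjusted p 0.406). The fall of Trp53 in 1 cross was therefore not shown to differ from the other cross.

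**Figure D2:**
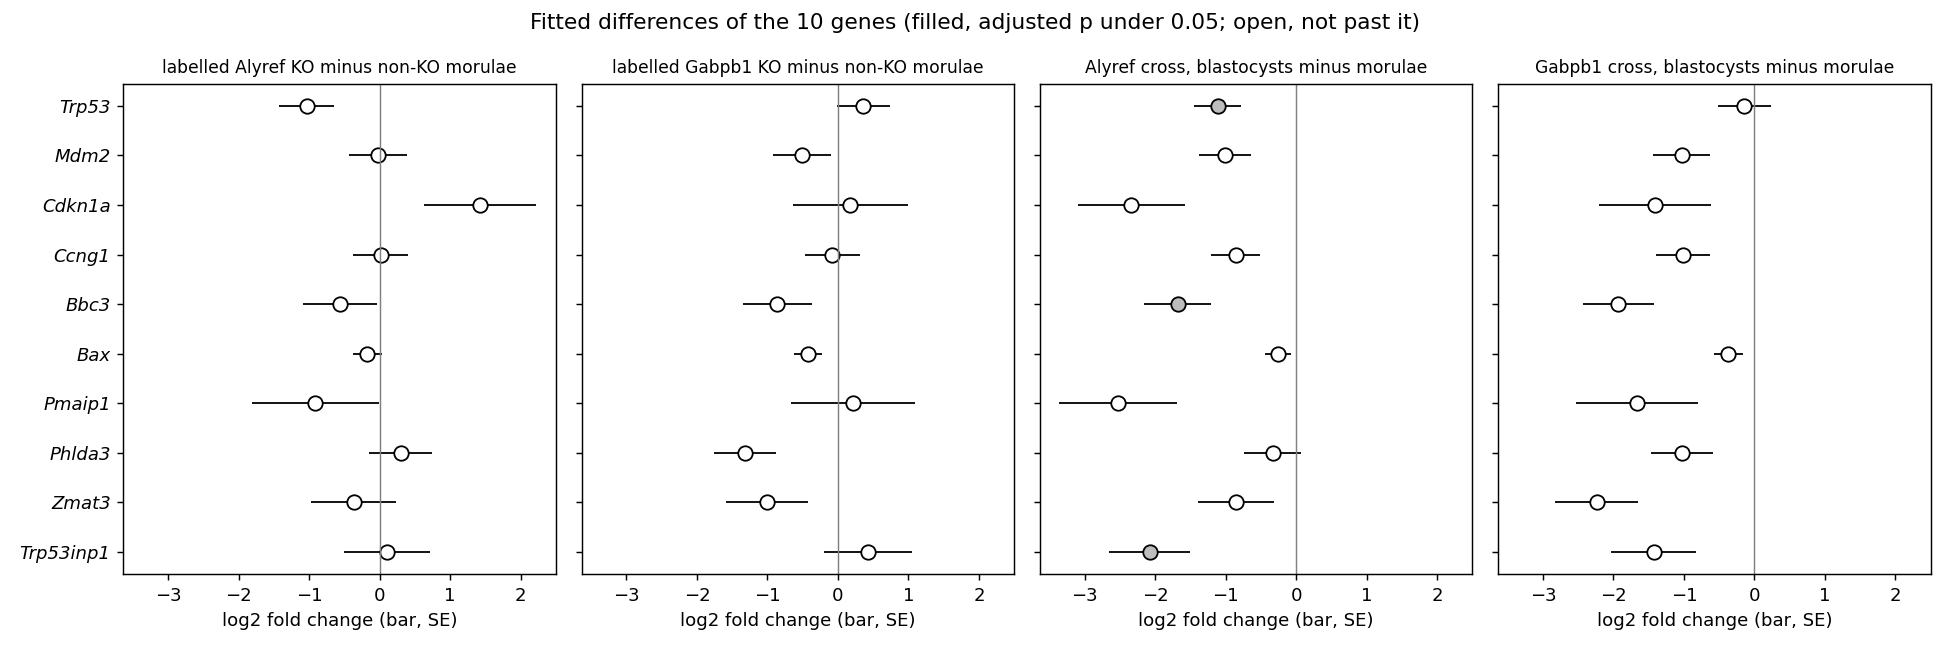
Log2 fold change of each of the 10 genes in 4 comparisons, with bars of 1 SE, from edgeR's fit over the 19 embryos. Filled points mark an adjusted p under 0.05, which only Trp53, Bbc3 and Trp53inp1 reached, in the stage comparison of the Alyref cross, and all points of both stage comparisons lie below 0.

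Against the non-KO morulae of the same cross, the Alyref KO morulae had a mixed set of values, with 4 of the 10 genes fitted higher and 6 lower. None of the 10 was called by edgeR or DESeq2, voom called 1, Trp53, and 1 had an unadjusted p under 0.05 in edgeR. Over all genes tested edgeR called 0.228%, DESeq2 490 of 18410 and voom 841, and 12.1% had an unadjusted p under 0.05 in edgeR. The median over the 10 was -0.10, beside -0.04 over all genes.

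Cdkn1a gave the largest fitted difference. It stood at 544 and 614 CPM in the Alyref KO morulae and at 186, 331 and 132 CPM in the non-KO morulae. Its fitted log2 ratio was 1.42 (SE 0.80, adjusted p 0.514). Both KO embryos lay above all 3 non-KO embryos, and they were the highest of the 19 embryos for Cdkn1a. Cdkn1a was the only one of the 10 that was higher without overlap, where 12.5% of all genes were.

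Trp53 had the smallest p, in the other direction. It stood at 70.6 and 26.5 CPM in the Alyref KO morulae and at 117, 94.4 and 86.3 CPM in the non-KO morulae. Its fitted log2 ratio was -1.03 (SE 0.39, adjusted p 0.277). The ratio was -1.90 without KO morula 1 and -0.51 without KO morula 2. Both KO embryos were lower, and they differed from each other by more than the 3 non-KO embryos did. Trp53 and Zmat3, which stood at 8.10 and 7.91 CPM against 11.5, 8.74 and 10.8 CPM, were the genes lower without overlap, where 12.3% of all genes were. Trp53inp1, Ccng1 and Mdm2 were near 0, at 0.10 (SE 0.61), 0.02 (SE 0.39) and -0.02 (SE 0.41). Their values in the KO embryos lay within the spread of the non-KO embryos, or, for Ccng1, just below it in 1 embryo. Among the death genes, Pmaip1 differed by -0.91 (SE 0.91), Bbc3 by -0.56 (SE 0.52) and Bax by -0.17 (SE 0.20), and Phlda3 differed by 0.30 (SE 0.45).

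Morulae labelled Gabpb1 KO also differed from the non-KO morulae of their cross without a common direction, with 4 of the 10 genes fitted higher and 6 lower. None was called by edgeR or voom, DESeq2 called 1, Phlda3, and 2 had an unadjusted p under 0.05 in edgeR. Over all genes tested edgeR called 1.65%, DESeq2 1265 of 18410 and voom 463, and 18.9% had an unadjusted p under 0.05 in edgeR. Trophectoderm markers moved with this comparison, with 11 of 12 fitted lower (median -1.51, 0 called, 6 with an unadjusted p under 0.05) and sums of 505 to 3157 CPM against 3653 and 5429 CPM, and their part in it was not tested. The median over the 10 was -0.25, beside 0.06 over all genes. Phlda3 stood at 42.2, 29.9 and 49.7 CPM in the morulae labelled Gabpb1 KO and at 99.7 and 103 CPM in the non-KO morulae. Its log2 fold change was -1.32 (SE 0.44, adjusted p 0.130), and the non-KO embryos were the 2 highest of all 19.

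Bax stood at 98.4, 107 and 119 CPM against 128 and 163 CPM, a difference of -0.43 (SE 0.20, adjusted p 0.262). Bbc3 stood at 3.46, 6.24 and 4.28 CPM against 6.65 and 10.2 CPM, a difference of -0.86 (SE 0.49, adjusted p 0.365). With Phlda3, these were the 3 of 10 lower without overlap, where 16.4% of all genes were, and none was higher without overlap, where 15.8% were. Zmat3 differed by -1.01 (SE 0.58), Mdm2 by -0.51 (SE 0.41) and Ccng1 by -0.08 (SE 0.39). Fitted values above 0 were those of Trp53inp1 at 0.42 (SE 0.62), Trp53 at 0.36 (SE 0.38), Pmaip1 at 0.22 (SE 0.88) and Cdkn1a at 0.18 (SE 0.81). With ERCC scaling the median of all genes was -0.40 in this comparison, and these 4 turned to values between -0.43 for Trp53 and -0.80 for Pmaip1, which for Trp53 is 0.03 below that median and for Pmaip1 0.39 below it.

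One embryo, replicate 2 of the morulae labelled Gabpb1 KO, stood apart. It held the highest level of its group for 7 of the 10 genes, where it did so for 31.5% of all genes tested. Its Trp53inp1 at 266 CPM, Ccng1 at 683 CPM and Pmaip1 at 180.3 CPM were the highest of the 19 embryos. The same embryo had the lowest trophectoderm sum of all embryos, 505 CPM, and the largest share of ERCC counts, 1.95%, and their part in these levels was not tested. Without it, all 10 genes had lower fitted levels in the morulae labelled Gabpb1 KO, with a median of -0.48 and none called.

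The effects of the 2 knockouts were compared directly as well. None of the 10 differed between them in edgeR, while voom called 1, Trp53, DESeq2 called 0 and 2 had an unadjusted p under 0.05. Over all genes edgeR called 0.907%, DESeq2 894 of 18410 and voom 773, and 16.9% had an unadjusted p under 0.05 in edgeR. Trp53 was the one with a positive and Phlda3 the one with a negative difference among those 2. The log2 fold change of Trp53 was higher by 1.39 (SE 0.54, adjusted p 0.210) in the Gabpb1 than in the Alyref comparison, and that of Phlda3 differed by -1.62 (SE 0.63, adjusted p 0.210).

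Set beside the stage difference, the knockout differences were smaller in size for 10 of the 10 genes in the Alyref cross and for 7 of the 10 in the Gabpb1 cross. Both comparisons of a cross share its non-KO morulae and so are not independent. The 10 genes were also chosen with earlier results of these data known, so these 2 counts are a description and not a test. The share of all genes with the smaller knockout difference was not computed. Of all genes, 12.1% for the knockout and 31.1% for the stage had an unadjusted p under 0.05 in edgeR in the Alyref cross. In the Gabpb1 cross these shares were 18.9% and 6.72%. In the Alyref cross, Trp53inp1 had 0.10 for the knockout and -2.08 for the stage, Bbc3 -0.56 and -1.68, Mdm2 -0.02 and -1.01, and Ccng1 0.02 and -0.86. Cdkn1a had opposite signs, with 1.42 and -2.34, whereas Trp53 had -1.03 and -1.11. For Trp53 the order of the sizes turned with 1 embryo, since the knockout value ran from -1.90 to -0.51 and the stage value from -1.22 to -0.96 when single embryos were left out. In the Gabpb1 cross, Phlda3 had -1.32 for the knockout and -1.03 for the stage, and with Bax and Trp53 it was one of the 3 whose knockout value was the larger in size. There Bax had -0.43 and -0.37 and Trp53 0.36 and -0.14. Cdkn1a had 0.18 and -1.41, and Trp53inp1 0.42 and -1.43.

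Morulae labelled KO were also compared directly with the non-KO blastocysts of the same cross, which were of the same age. In the Alyref cross all 10 genes were fitted higher in the KO morulae, and Cdkn1a and Trp53inp1 were called, where 6.90% of all genes were called higher. Cdkn1a was 13.5-fold higher, a log2 difference of 3.76 (SE 0.84, adjusted p 0.0130), and Trp53inp1 was 4.53-fold higher, a log2 difference of 2.18 (SE 0.62, adjusted p 0.0320). KO morulae lay above all blastocysts for 7 of the 10, where 28.3% of all genes did so. Trp53, at 70.6 and 26.5 CPM against 42.7, 42.2 and 52.5 CPM, differed little, with a log2 difference of 0.08 (SE 0.37) and 1 KO embryo on either side of the blastocysts. Leaving out 1 embryo left 1 or 0 of these calls, with 0 when KO morula 2 or blastocyst 2 was left out.

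In the Gabpb1 cross, 8 of the 10 were fitted higher in the morulae labelled Gabpb1 KO than in the non-KO blastocysts, and Bax and Phlda3 were lower by 0.06 (SE 0.18) and 0.29 (SE 0.40). None was called by edgeR, DESeq2 called 1, voom 4, and 6 had an unadjusted p under 0.05 in edgeR. Over all genes edgeR called 8.92%, DESeq2 2985 of 18410 and voom 2865, and 27.0% had an unadjusted p under 0.05 in edgeR. The nearest to the threshold was Trp53inp1, at 74.3, 266 and 170.1 CPM against 16.1, 83.6 and 41.9 CPM, a log2 difference of 1.85 (SE 0.57, adjusted p 0.0529). It was called with the replicate number as a block and when morula 1 labelled Gabpb1 KO or blastocyst 2 was left out. Bbc3 was the only one of the 10 with no overlap here, where 12.8% of all genes were higher without overlap.

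**Figure D3:**
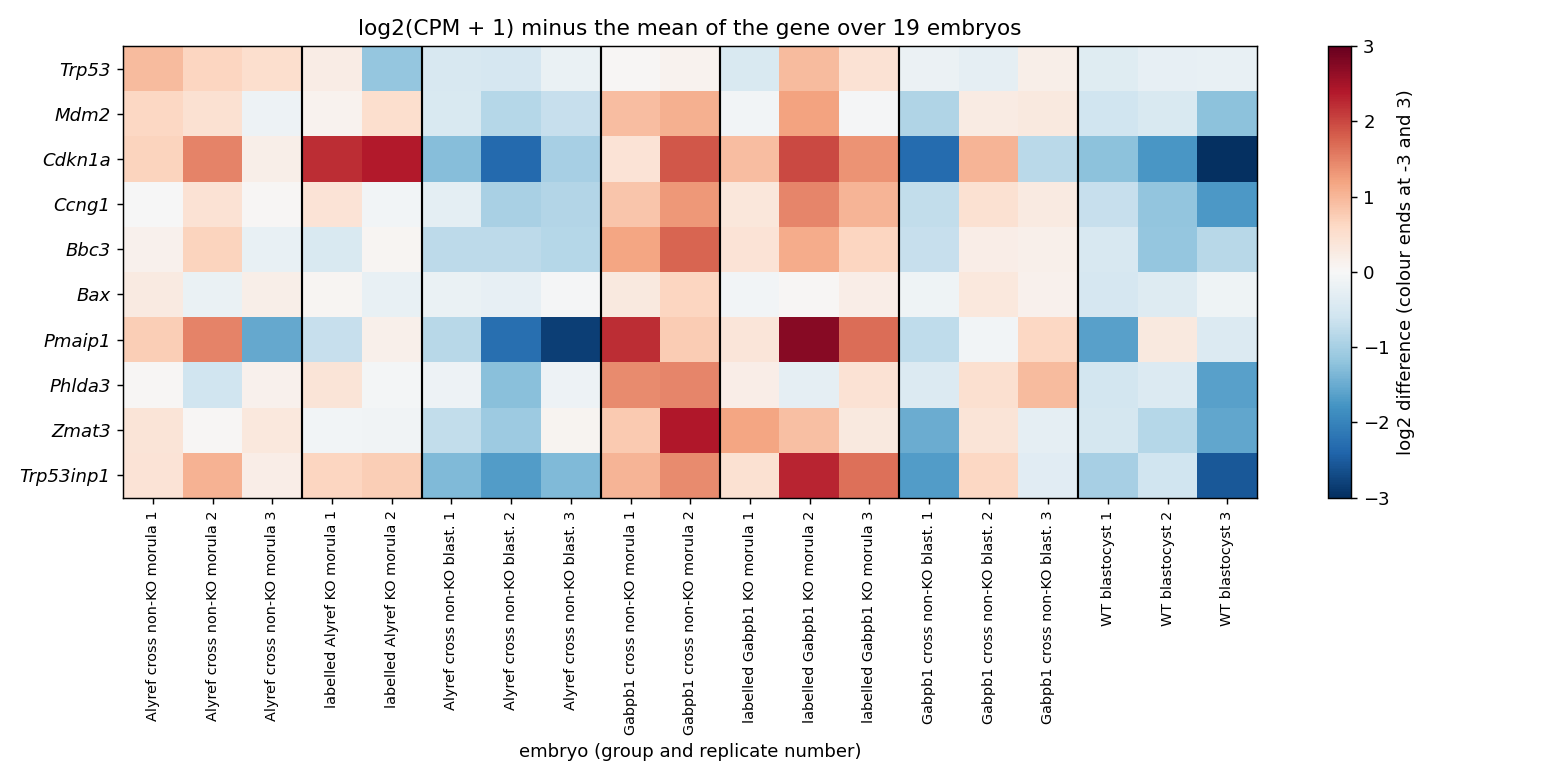
Level of each of the 10 genes (rows) in each of the 19 embryos (columns, by group), as log2(CPM + 1) minus the gene's mean over all embryos, with colours limited to between -3 and 3. Blastocyst columns are mostly below the gene mean, with Gabpb1-cross blastocysts 2 and 3 closer to the morulae.

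Embryos of the same group differed from each other over many of the 10 genes at once. Blastocyst 2 of the Gabpb1 cross had the highest level of all 9 blastocysts for 6 of the 10 genes, and blastocyst 3 for the other 4, where they were highest for 18.0% and 17.4% of all genes. Blastocyst 1 of that cross was the lowest of its group for 9 of the 10, beside 27.4% of all genes. Cdkn1a showed it most, at 22.9 CPM in blastocyst 1 and 239 CPM in blastocyst 2 of the same cross. WT blastocyst 3 was the lowest of all 9 for 6 of the 10 genes, beside 10.2% of all genes, with Cdkn1a at 7.44 CPM and Trp53inp1 at 8.32 CPM. In the non-KO morulae of the Gabpb1 cross, replicate 2 was the higher embryo for 9 of the 10 genes, beside 49.1% of all genes. The genes of an embryo share its library and are not replicates.

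Non-KO morulae differed between the crosses as well, although both kinds carry WT or hetero labels. In the Gabpb1 cross 9 of the 10 genes were fitted higher, all but Trp53, with a median of 0.80 beside -0.03 over all genes. None was called by edgeR, DESeq2 called 3, voom 2, and 4 had an unadjusted p under 0.05 in edgeR. Over all genes edgeR called 1.85% and DESeq2 called 1694 of 18410, and 22.4% had an unadjusted p under 0.05 in edgeR. Phlda3 stood at 99.7 and 103 CPM in the Gabpb1 cross and at 37.2, 23.7 and 40.3 CPM in the Alyref cross, a difference of 1.59 (SE 0.44, adjusted p 0.0688). Groups did not overlap for 6 genes that were higher (Phlda3, Zmat3, Bbc3, Bax, Mdm2 and Ccng1), where 17.9% of all genes were, and for Trp53, which was lower, where 18.2% were. The trophectoderm markers moved with these groups, summing to 5429 and 3653 CPM in the non-KO morulae of the Gabpb1 cross and to between 1463 and 2537 CPM in those of the Alyref cross, and their part in the difference was not tested.

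Non-KO blastocysts of the Alyref cross did not differ from WT blastocysts for any of the 10 genes in edgeR, DESeq2 or voom, with 0 unadjusted p under 0.05 beside 2.94% of all genes, where 0% of all genes were called. Those of the Gabpb1 cross had all 10 fitted higher than WT blastocysts, with a median of 0.89 beside 0.00 over all genes. None was called by edgeR, DESeq2 or voom, and edgeR called 0% of all genes here too. An unadjusted p under 0.05 was found for 5 of the 10 and for 6.10% of all genes. Cdkn1a differed by 1.85 (SE 0.75, adjusted p 0.800) and Ccng1 by 1.24 (SE 0.35, adjusted p 0.578). Only Bax was without overlap, beside 6.51% of all genes that were higher without overlap.

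The summed level of the trophectoderm markers was higher in blastocysts, where the 10 genes were lower, but single markers went both ways. In the Alyref cross 10 of the 12 were fitted higher and 4 were called higher, while Tfap2c, a trophectoderm transcription factor, fell by 1.19 (SE 0.29, adjusted p 0.0184). In the Gabpb1 cross 8 of 12 were fitted higher, with none called by edgeR and 0 unadjusted p under 0.05. The 12 markers summed to 2276 and 1277 CPM in the Alyref KO morulae, to between 505 and 3157 CPM in the morulae labelled Gabpb1 KO, and to between 5594 and 8781 CPM in the Alyref-cross blastocysts. All 12 had counts in every blastocyst. Other lists moved with the groups as well. The 8 epiblast and pluripotency markers summed to 656 to 772 CPM in the non-KO morulae and 330 to 407 CPM in the blastocysts of the Alyref cross, where Nanog, Klf2 and Pou5f1 were called lower, but 8 of 8 were fitted higher in Gabpb1-cross blastocysts, with none called. The 7 primitive endoderm markers summed to 423 to 503 CPM in WT blastocysts and to between 150.4 and 274 CPM in the blastocysts of the crosses. The part of these cell types in the lower levels of the 10 genes was not tested. Markers of cumulus and granulosa cells, which surround the oocyte, summed to at most 0.965 CPM in any embryo. The 6 oocyte and zygote markers summed to between 3.37 and 10.7 CPM in morulae and to between 0.807 and 2.22 CPM in blastocysts.

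**Figure D4:**
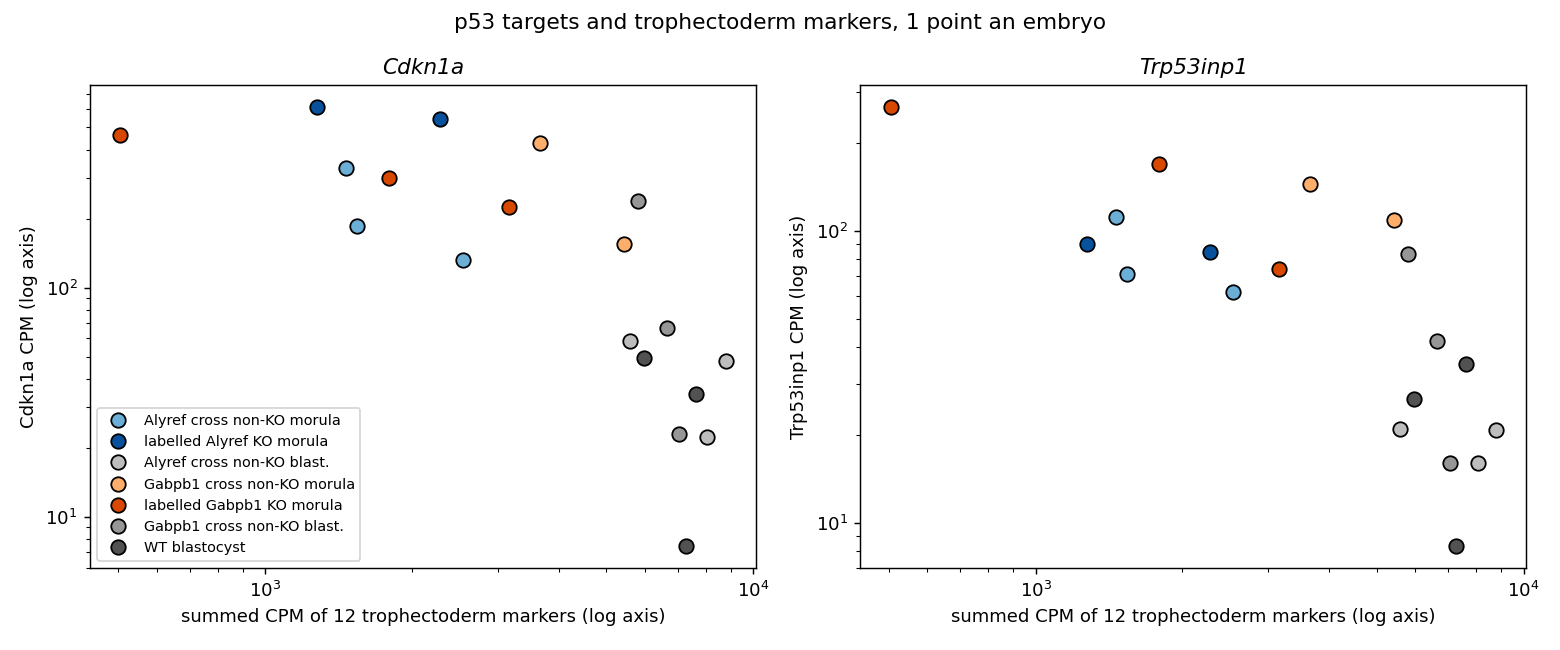
Level of Cdkn1a and of Trp53inp1 in each embryo (vertical, CPM) against the summed level of 12 trophectoderm markers (horizontal, CPM), both on log axes, with 1 point per embryo coloured by group. Blastocysts lie to the right and mostly low, but Gabpb1-cross blastocyst 2 (Cdkn1a 239 CPM, Trp53inp1 83.6 CPM) lies above some morulae in both panels. The 2 Alyref KO morulae lie within or just below the other Alyref-cross morulae on the horizontal axis but highest for Cdkn1a.

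A wider list of 47 other p53 targets was read beside the 10, of which 44 were tested. In the stage comparison of the Alyref cross 6 of the 44 fell and 1 rose, beside 7.43% of all genes called lower and 5.62% called higher. The genes that fell included 2 polo-like kinases that act in stress responses, Plk3 by 4.13 (SE 0.94, adjusted p 0.0152) and Plk2 by 3.02 (SE 0.81, adjusted p 0.0271). Eda2r, a death receptor of the TNF receptor family, fell by 3.06 (SE 0.87, adjusted p 0.0326) and Ei24, an endoplasmic reticulum protein, by 1.45 (SE 0.41, adjusted p 0.0317). Tigar, which limits glycolysis, fell by 1.27 (SE 0.30, adjusted p 0.0167), and Sesn2, an inhibitor of mTORC1 signalling, by 1.11 (SE 0.32, adjusted p 0.0333). Lif, a cytokine, was the one that rose, by 2.25 (SE 0.50, adjusted p 0.0139). These calls varied with single embryos, from none of the 44 without morula 2 or blastocyst 2 to 9 without morula 3. Over all 18410 genes, 370 and 442 were called without morula 2 and without blastocyst 2, and 4560 without morula 3. None of the 44 was called with the compared groups alone and 1, Plk3, with ERCC scaling. In the Alyref cross 26 of the 44 were fitted lower, beside 51.7% of all genes. There 15 had an unadjusted p under 0.05 in edgeR, beside 31.1% of all genes. The median over the 44 was -0.26, beside -0.04 over all genes. In the Gabpb1 cross it was -0.52, beside 0.02 over all genes, and none of the 44 was called by edgeR. There 32 of 44 were fitted lower, beside 47.5% of all genes. An unadjusted p under 0.05 in edgeR was found for 9 in that cross, beside 6.72% of all genes. The smallest p there belonged to Tnfrsf10b, a death receptor, with -2.20 (SE 0.46, adjusted p 0.262), and Ddr1, a collagen receptor, with -1.28 (SE 0.39, adjusted p 0.528).

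In neither knockout comparison was any of the 44 called by edgeR. Its unadjusted p was under 0.05 for 4 in Alyref KO morulae and 7 in morulae labelled Gabpb1 KO, beside 12.1% and 18.9% of all genes. DESeq2 called 1, Trp53i13, in the former and 2, Ccng2 and Ercc5, in the latter, and voom called 3 and 0. Over all 18410 genes DESeq2 called 490 and 1265 in these comparisons, and voom 841 and 463. Medians were 0.10 and -0.17, beside -0.04 and 0.06 over all genes. Trp53i13 and Tnfrsf10b had the smallest p in the Alyref KO morulae. Trp53i13 stood at 21.6 and 18.8 CPM against 4.80, 7.13 and 5.60 CPM in the non-KO morulae, a difference of 1.79 (SE 0.40, adjusted p 0.0855), and these 2 embryos were the highest of the 19. Tnfrsf10b stood at 49.9 and 60.3 CPM against 27.6, 21.1 and 15.2 CPM, a difference of 1.37 (SE 0.45, adjusted p 0.212). In the morulae labelled Gabpb1 KO the smallest p among the 44 belonged to Ercc5, a nucleotide excision repair nuclease, with -1.70 (SE 0.52, adjusted p 0.104).

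Of 29 listed regulators of p53, 26 were tested. None was called by edgeR in a knockout comparison or in the stage comparison of the Gabpb1 cross. An unadjusted p under 0.05 in edgeR was found for 3, 9 and 1 for Alyref KO, for Gabpb1 KO and for that stage. Over all genes these shares were 12.1%, 18.9% and 6.72%. The smallest p among the 26 for Gabpb1 KO belonged to Atm, a kinase that activates p53 after DNA breaks, with 1.73 (SE 0.54, adjusted p 0.108). DESeq2 called Atm, where it called 1265 of all 18410 genes. In the Alyref cross 3 of the 26 were called lower and 1 higher in blastocysts than in morulae, beside 7.43% and 5.62% of all genes. Rpl5, a ribosomal protein that binds Mdm2, fell by 0.97 (SE 0.22, adjusted p 0.0143). Rfwd2, a ubiquitin ligase for p53, fell by 0.78 (SE 0.24, adjusted p 0.0456), and Usp10, a deubiquitinase for p53, by 0.95 (SE 0.30, adjusted p 0.0479). Ppp1r13l, an inhibitor of p53, rose by 1.36 (SE 0.36, adjusted p 0.0257). The regulators that fell act in both directions on p53. None of the 26 was called without morula 2 or without blastocyst 1, with the compared groups alone or with ERCC scaling, and 7 were called without morula 3. Over all 18410 genes, 370 and 422 were called without morula 2 and without blastocyst 1, and 4560 without morula 3.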

How the data were processed

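PolyA RNA of 19 single embryos in 7 groups of 2 or 3 had been sequenced as paired reads after PCR amplification. The table the authors deposited is named for FPKM but holds raw counts, whole numbers per gene, so the count test planned for that case was used. Per the submitters' processing notes, Trimmomatic, Trim Galore, cutadapt, STAR and featureCounts were used on mm10, and the strand setting is not given in the sources used here. Of 53379 gene rows, 50604 were found in GENCODE M21, all with the same start and end.

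FPKM was computed from the deposited counts and lengths. A gene was tested if it reached 1 FPKM in at least 2 embryos (18410 genes). edgeR 4.0.16 (R 4.3.3) was fitted to all 19 embryos with a mean per group, TMM scaling and quasi-likelihood tests, and p-values were adjusted by Benjamini-Hochberg over all tested genes, with a threshold of 0.05. SE is the size of the log2 fold change over the root of F. Adjusted p-values are edgeR's unless another tool is named. Alternatives were DESeq2 1.42.0, limma 3.58.1 (voom with embryo weights), ERCC scaling, DESeq2 size factors in edgeR, other filters, the compared groups alone, a replicate block and leaving out each embryo.

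The 10 genes and all gene lists were chosen with earlier results of these data known. All 10 are named. From the lists of other p53 targets and p53 regulators, called genes of the 2 knockout and 2 stage comparisons are named, or, with none called, the 2 with the smallest p over both lists. Trp53i13 and Tnfrsf10b had those in Alyref KO morulae. Replicates are separate embryos, and p-values rest on a spread between embryos estimated over all 7 groups, not only those compared. No pair of embryos of the same group agreed within sampling noise (chi-square per gene at least 16.3). No molecular identifiers are described, so PCR copies of 1 molecule may be counted more than once.

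The fitting steps were tested on simulated counts with known changes. The SE of a fitted difference rests on the same estimate of spread, and the spread between fertilisation runs or parents was not measured.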

Additional observations from a re-analysis of the deposited data

How the results depend on the processing

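In both stage comparisons all 10 genes stayed lower in blastocysts under every alternative run, Bbc3 and Zmat3 not being tested at 5 FPKM. The number called was less stable. For the stage in the Alyref cross it was 3, and 6 with DESeq2, 8 with voom, 0 with ERCC scaling, 0 with the compared groups alone and 0 to 6 when single embryos were left out. For the stage in the Gabpb1 cross it was 0, and 1 with voom. For Alyref KO it was 0, and 1 with voom, and for Gabpb1 KO 0, and 1 with DESeq2. For Alyref KO morulae against blastocysts it was 2, and 4 with the compared groups alone and 0 to 1 without single embryos. For morulae labelled Gabpb1 KO against blastocysts it was 0, and 1 with DESeq2, 1 without the filter, 1 at 5 FPKM, 4 with voom and 0 to 2 without single embryos. The difference between the knockout effects had 0, and 1 with voom. Non-KO morulae between crosses had 0, and 3 with DESeq2, 2 with voom and 0 to 1 without single embryos. The other counts did not move, and the cause of these changes was not tested, except that the compared groups alone and left-out embryos leave fewer embryos.

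Of 60 fold changes of the 10 genes in 6 comparisons, 14 turned their sign at least once, 0 of them in a stage comparison. For Alyref KO, Mdm2 went from -0.02 to 0.015 with ERCC scaling and 0.032 at 5 FPKM, and Ccng1 from 0.02 to -0.011 without the filter and -0.014 with the replicate block. For Gabpb1 KO, ERCC scaling gave Trp53 -0.43, Cdkn1a -0.51, Pmaip1 -0.80 and Trp53inp1 -0.45. For Alyref KO morulae against blastocysts, Trp53 was -0.022 without the filter and -0.18 with voom, and Bax -0.015 without the filter. For morulae labelled Gabpb1 KO against blastocysts, Bax was 0.36 with ERCC scaling and 0.082 with voom, and Phlda3 0.34 and 0.14. ERCC scaling also moved the median of all genes, to 0.27 for Alyref KO morulae and 0.47 for morulae labelled Gabpb1 KO against blastocysts, 0.39 for non-KO morulae between crosses and 0.15 for Alyref-cross against WT blastocysts. Leaving out single embryos gave, for Alyref KO, Mdm2 -0.26 to 0.17, Ccng1 -0.25 to 0.22 and Trp53inp1 -0.061 to 0.39. For Gabpb1 KO it gave Trp53 -0.021 to 0.66, Cdkn1a -0.38 to 1.08, Ccng1 -0.39 to 0.17, Pmaip1 -0.52 to 1.14, Zmat3 -1.62 to 0.045 and Trp53inp1 -0.061 to 0.78. Against blastocysts it gave Trp53 -0.82 to 0.57 and Bax -0.079 to 0.16 for Alyref KO morulae, and Mdm2 -0.032 to 0.75, Bax -0.17 to 0.043 and Phlda3 -0.59 to 0.056 for morulae labelled Gabpb1 KO.

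Whether the replicate numbers in the titles pair embryos could not be settled. Deviations of same-numbered embryos from their group means correlated at between -0.13 and 0.15 across genes. These values ran from -0.13 to 0.11 in the Alyref cross and from 0.028 to 0.15 in the Gabpb1 cross. In a group of 2 embryos the deviations mirror each other, so their correlations are not separate values. With the replicate block, 1 of the 10 genes (Trp53inp1) was called for morulae labelled Gabpb1 KO against blastocysts, where 0 were without it, and no other count of the 10 genes moved. Counts over all genes varied more. edgeR called 42 genes for Alyref KO, and DESeq2 490, voom 841, ERCC scaling 0, the compared groups alone 0 and single embryos left out 0 to 128. For Gabpb1 KO these were 303, and 1265, 463, 26, 0 and 48 to 966. For the stage in the Alyref cross they were 2402, and 3739, 7262, 352, 24 and 370 to 4560, and for the stage in the Gabpb1 cross 0, and 51, 24, 0, 0 and 0 to 6. With the replicate block 2 of the 26 regulators were called for the stage in the Alyref cross, beside 4 without it. Bbc3, with 8 to 134 counts per embryo, is the gene of the 10 whose depth limits it most.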

Other observations

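Over the 19 embryos, some other genes followed Trp53 or Cdkn1a closely. Whether these genes belong to the p53 pathway was not tested. Likeness was measured as the root-mean-square distance between standardised log2(CPM + 1) profiles over 11439 genes with a mean of at least 5 CPM, and the genes were taken by rank. Nearest to Cdkn1a were Btbd19 at 0.374, Polr2b, a large subunit of RNA polymerase II, at 0.375 and Hsd17b1, a steroid dehydrogenase, at 0.383, where the median over all genes was 1.42. Polr2b averaged 281 ± 14.7 CPM (SD, n = 2) in Alyref KO morulae, 226 ± 65.7 CPM (SD, n = 3) in non-KO morulae and 91.8 ± 5.38 CPM (SD, n = 3) in blastocysts of the Alyref cross. Hsd17b1 averaged 17.0, 12.4 and 1.80 CPM in the same groups, and 0.662 CPM in WT blastocysts. Nearest to Trp53 were Pitpna at 0.587, Siah1a at 0.598 and Ttc39b at 0.599, beside a median of 1.39, so the profile of Trp53 had no gene as near as those of Cdkn1a. Ttc39b averaged 32.9 ± 7.40 CPM (SD, n = 2) in Alyref KO morulae, 76.1 ± 22.3 CPM (SD, n = 3) in non-KO morulae and 33.5 ± 0.955 CPM (SD, n = 3) in blastocysts of the Alyref cross. The 19 points share stage and cross, so a small distance is a description.

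Group means of Cdkn1a ran from 579 ± 49.3 CPM (SD, n = 2) in Alyref KO morulae through 328 ± 121 CPM (n = 3) in the morulae labelled Gabpb1 KO, 291 ± 192 CPM (n = 2) and 216 ± 103 CPM (n = 3) in the non-KO morulae of the Gabpb1 and Alyref crosses, to 109.5 ± 114 CPM, 42.8 ± 18.5 CPM and 30.4 ± 21.3 CPM (n = 3 each) in Gabpb1-cross, Alyref-cross and WT blastocysts. The first and second groups in that order did not overlap, and every later pair of neighbours did. Group means of Trp53 ran from 99.1 ± 15.8 CPM (n = 3) in the non-KO morulae of the Alyref cross, through 81.0 ± 37.1 CPM (n = 3) in morulae labelled Gabpb1 KO and 63.2 ± 2.52 CPM (n = 2) in their non-KO counterparts, to 57.1 ± 9.69 CPM in Gabpb1-cross blastocysts (n = 3). WT blastocysts at 49.6 ± 2.94 CPM (n = 3), Alyref KO morulae at 48.6 ± 31.2 CPM (n = 2) and Alyref-cross blastocysts at 45.8 ± 5.78 CPM (n = 3) followed, and all neighbours in that order overlapped.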
